A study of Mus musculus with 6 samples.

Results

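Of the 269751 probe sets measured on the array, 5139 were listed under 2 or more gene symbols, and these shared probe sets are described here. A probe set is a small group of probes that is read as 1 value, and an entry with several symbols does not say which of the genes the value came from. The members were all probe sets whose symbol entry in the array's gene table held at least 2 symbols, whatever their values. Another 233753 probe sets had 1 symbol and 30859 had none. Symbols of 1 entry are joined with a slash in the text.

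Germ cells were prepared by enzymatic digestion from testes of 6 individual FVB mice at 22 days post-partum (dpp). Of these, 3 were conditional mutants, Mgat1[F/F]:Stra8-iCre (Mgat1 cKO), in which the Stra8 promoter drives Cre in spermatogonia, and 3 were controls, Mgat1[F/F], with the same floxed alleles and no Cre. Mgat1 encodes GlcNAcT-I, which starts the synthesis of complex and hybrid N-glycans. Each mouse had its own Affymetrix Mouse Gene 2.0 ST array, so n = 3 per genotype, and values are log2 signals after robust multi-array averaging (RMA). Mgat1 itself averaged 6.79 ± 0.09 in the cKO arrays and 6.91 ± 0.09 in the control arrays (SD, n = 3 each), and 0 of its 12 probe sets were called by limma, 0 also at an unadjusted p under 0.05, so these values do not check the genotypes, which rest on the labels.

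Of the 6 germ cell markers, 2 were higher and 4 lower in the cKO. The spermatid gene Tnp2 was at 11.16 ± 0.23 in cKO and 6.59 ± 0.21 in control arrays and the acrosomal gene Acrv1 at 11.45 ± 0.07 in cKO and 9.65 ± 0.15 in control arrays (SD, n = 3 each). The genes of spermatogonia and spermatocytes Dazl, Sycp3 and Piwil1 were at 10.38 ± 0.20, 9.48 ± 0.31 and 11.39 ± 0.14 in cKO and at 10.96 ± 0.21, 10.13 ± 0.06 and 11.93 ± 0.08 in control arrays, with 0 of 12, 2 of 7 and 4 of 20 probe sets lowered, and Ddx4 was at 12.3 in cKO and 12.37 in control arrays. Of 8 markers of other testis cells, 7 were lower in the cKO, the macrophage gene Cd74 by 2.38 and the stromal genes Pdgfra by 1.41 and Dcn by 1.32 on the log2 scale, and none was at 0. Their summed level ran between 10.99 and 11.71 in cKO arrays and between 12.26 and 12.67 in control arrays. In such bulk preparations, fewer cells of a type and less RNA per cell cannot be told apart. The part of these shifts in the results was not tested.

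Shared entries arise chiefly where genes exist in several near-identical copies. The mouse X chromosome carries many such copy clusters that are transcribed in male germ cells, and several of them, such as Slx and Slxl1, are active in spermatids after meiosis, when most other X-linked genes remain repressed. Y-linked copy clusters such as Sly act against them. Other shared entries come from gene pairs that overlap or lie next to each other, from parent genes and their retrocopies, and from families such as histones, amylases and vomeronasal receptors.

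Promoter windows of RefSeq (build GRCm38.p6, 250 bases before to 50 after the annotated start) are printed for 4 sets of genes whose shared probe sets changed, 3 upward and 1 downward. Of the 2606 symbols in shared entries, 1478 had such a window. The windows lie mostly upstream of the transcripts that the probes read. Among these genes, Slx, Gm2030, Luzp4, 4930467E23Rik, Gm15319 and 4921509C19Rik also had probe sets of their own. The window of Slx (chrX:26545516-26545815, minus strand), an X-linked spermatid gene, is followed by those of 2 predicted copies, Gm2030 (chrX:26309995-26310294, minus strand) and Gm1993 (chrX:25570400-25570699, minus strand). Capitals mark the 13 and 14 bases in which these copies differ from Slx, at 95.7% and 95.3% identity without gaps.
Slx: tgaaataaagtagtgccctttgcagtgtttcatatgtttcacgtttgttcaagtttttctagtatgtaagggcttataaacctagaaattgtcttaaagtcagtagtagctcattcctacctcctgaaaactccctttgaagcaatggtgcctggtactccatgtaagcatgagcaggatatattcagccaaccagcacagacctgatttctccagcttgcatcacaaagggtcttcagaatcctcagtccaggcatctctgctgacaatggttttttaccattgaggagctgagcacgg
Gm2030: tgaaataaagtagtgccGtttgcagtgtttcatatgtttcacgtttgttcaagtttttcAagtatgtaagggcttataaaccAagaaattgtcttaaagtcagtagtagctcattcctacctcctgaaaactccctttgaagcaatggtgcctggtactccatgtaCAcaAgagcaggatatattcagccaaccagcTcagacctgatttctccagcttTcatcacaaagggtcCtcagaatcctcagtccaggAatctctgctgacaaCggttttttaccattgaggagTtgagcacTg
Gm1993: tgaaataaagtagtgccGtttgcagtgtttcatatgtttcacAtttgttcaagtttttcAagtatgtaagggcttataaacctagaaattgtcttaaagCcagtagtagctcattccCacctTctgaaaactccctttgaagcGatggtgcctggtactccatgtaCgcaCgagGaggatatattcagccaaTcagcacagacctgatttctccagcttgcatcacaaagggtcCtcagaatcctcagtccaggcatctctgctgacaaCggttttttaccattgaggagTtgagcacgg

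Ott (chrX:149097702-149098001, plus strand) and Luzp4 (chrX:148882326-148882625, plus strand) belong to the X-linked set that was lower in the cKO. Their windows differed at 4 of 300 bases, in capitals, and were 98.7% identical.
Ott: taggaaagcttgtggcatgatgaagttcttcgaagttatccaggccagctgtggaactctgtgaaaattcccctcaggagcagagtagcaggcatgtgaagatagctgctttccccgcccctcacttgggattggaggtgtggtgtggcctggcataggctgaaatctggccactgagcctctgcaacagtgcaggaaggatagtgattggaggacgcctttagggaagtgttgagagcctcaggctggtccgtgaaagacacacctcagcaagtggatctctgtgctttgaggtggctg
Luzp4: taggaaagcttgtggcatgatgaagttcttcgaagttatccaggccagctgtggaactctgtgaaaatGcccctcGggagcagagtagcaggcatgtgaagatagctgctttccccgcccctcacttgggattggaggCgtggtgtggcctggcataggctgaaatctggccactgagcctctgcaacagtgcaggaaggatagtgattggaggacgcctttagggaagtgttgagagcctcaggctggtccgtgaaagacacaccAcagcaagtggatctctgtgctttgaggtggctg

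On chromosome 8, the windows of 4930467E23Rik (chr8:19729326-19729625, plus strand) and Gm15319 (chr8:20363153-20363452, minus strand) differed at 0 of 300 bases, and the window is printed once.
4930467E23Rik: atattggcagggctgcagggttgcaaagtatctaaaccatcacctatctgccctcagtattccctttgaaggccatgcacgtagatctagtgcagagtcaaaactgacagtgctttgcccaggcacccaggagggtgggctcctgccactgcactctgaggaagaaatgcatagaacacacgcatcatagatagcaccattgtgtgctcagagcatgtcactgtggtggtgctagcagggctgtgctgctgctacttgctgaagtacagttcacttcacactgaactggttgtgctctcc

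On chromosome 2, Gm14151 (chr2:151092301-151092600, minus strand) and 4921509C19Rik (chr2:151476102-151476401, minus strand), 2 of the 3 symbols of the autosomal set with the highest median among groups of at least 5 probe sets, differed at 3 bases, in capitals, and were 99.0% identical.
Gm14151: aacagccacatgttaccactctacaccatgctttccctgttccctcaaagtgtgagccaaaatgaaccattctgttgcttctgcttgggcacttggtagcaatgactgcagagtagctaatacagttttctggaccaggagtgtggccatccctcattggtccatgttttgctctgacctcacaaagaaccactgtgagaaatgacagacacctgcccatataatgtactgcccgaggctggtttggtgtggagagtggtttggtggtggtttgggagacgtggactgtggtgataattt
4921509C19Rik: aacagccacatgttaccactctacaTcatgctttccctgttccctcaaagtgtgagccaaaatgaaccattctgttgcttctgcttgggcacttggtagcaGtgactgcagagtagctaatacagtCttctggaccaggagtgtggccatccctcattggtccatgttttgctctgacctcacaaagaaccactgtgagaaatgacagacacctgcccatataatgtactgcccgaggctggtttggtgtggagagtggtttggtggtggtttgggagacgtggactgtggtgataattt

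Shared probe sets were raised more often than lowered. In a limma fit over all 269751 probe sets, with Benjamini-Hochberg adjustment and a call at an adjusted p under 0.05, 660 of the 5139 were raised in the cKO (12.8%) and 195 were lowered (3.79%), where 5.19% of all probe sets were raised and 4.11% lowered. Among probe sets with 1 symbol, 5.08% were raised and 4.19% lowered. Entries with at least 2 named symbols (not predicted genes, clones or small RNAs) lay below these shares for the raised. Where their names shared a stem, 4.92% were raised and 3.03% lowered, and where the names were unlike, 3.62% and 7.24%. The median log2 fold change was 0.03 over the shared probe sets and -0.06 over all probe sets. The count of raised probe sets was 409 without cKO replicate 1 and 433 without cKO replicate 2, and that of lowered ones ran between 47 and 113 when any 1 array was left out.

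The same measurement often stands in the table several times. Because copies lie at several loci, 1342 shared probe sets carried the same 6 values as at least 1 other shared probe set, and the 5139 rows held 4292 distinct measurements. With each counted once, 402 were raised (9.37%) and 174 lowered (4.05%). Entries of 2 symbols made up 3031 of the rows, and the longest held 20 symbols. The share raised did not follow the number of symbols evenly. It was 6.50% for entries of 2 symbols, 33.1% for the 375 entries of 5 symbols, 14.8% for the 122 entries of 7, 17.7% for the 62 entries of 12, of which 25.8% were lowered, and 83.9% for the 31 entries of 19, while 0 of the 2 entries of 20 symbols were raised.

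The share raised differed with the place of the genes in an entry. Of 2508 probe sets whose genes lay apart on 1 chromosome, as copies in a cluster do, 552 (22.0%) were raised and 81 lowered. Of 1473 with overlapping gene spans, 60 (4.07%) were raised and 52 lowered, and of 605 with neighbours within 10 kb, 31 (5.12%) were raised and 38 lowered. Of 538 whose genes lay on different chromosomes, 14 (2.60%) were raised and 24 lowered, with a median log2 fold change of -0.16. No test was made between these classes. By name, 52 of 1056 entries with a shared name stem were raised (4.92%) and 32 lowered (3.03%). Of 1270 with unlike names, 46 were raised (3.62%) and 92 lowered (7.24%), so that falls outnumbered rises there. Of 1807 with 1 named symbol beside predicted, clone or small RNA symbols, 288 were raised (15.9%) and 43 lowered (2.38%). Entries of predicted Gm genes only had 107 of 452 raised (23.7%) and 9 lowered. Those that mixed predicted genes, clones or small RNAs had 156 of 446 raised (35.0%) and 17 lowered.

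The X chromosome held 327 of the 660 raised shared probe sets. It carried 560 members, of which 58.4% were raised and 24 lowered, with a median log2 fold change of 1.16, where 7.13% of the 8158 X-linked probe sets with 1 symbol were raised. Counted once per measurement, 149 of 332 X-linked members were raised. Of the 327, 151 belonged to the Slx group and 77 to the Slxl1 group, both described below. Single-symbol X-linked probe sets whose symbol also stood in a shared entry numbered 414, of which 15.2% were raised, with a median of 0.07. Members on the autosomes were raised in 317 of 4038 cases (7.85%), with the highest shares on chromosomes 8 (47 of 198), 2 (89 of 412) and 12 (26 of 134). Counted once per measurement, these were 19 of 169 on chromosome 8, 64 of 350 on chromosome 2 and 14 of 112 on chromosome 12, so that chromosome 8 no longer led, and these counts came mostly from the families described after the X-linked ones. Without the X chromosome, 333 of the 4579 other members were raised (7.27%). With any 1 array left out, 258 to 314 of the X-linked probe sets were raised.

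**Figure D1:**
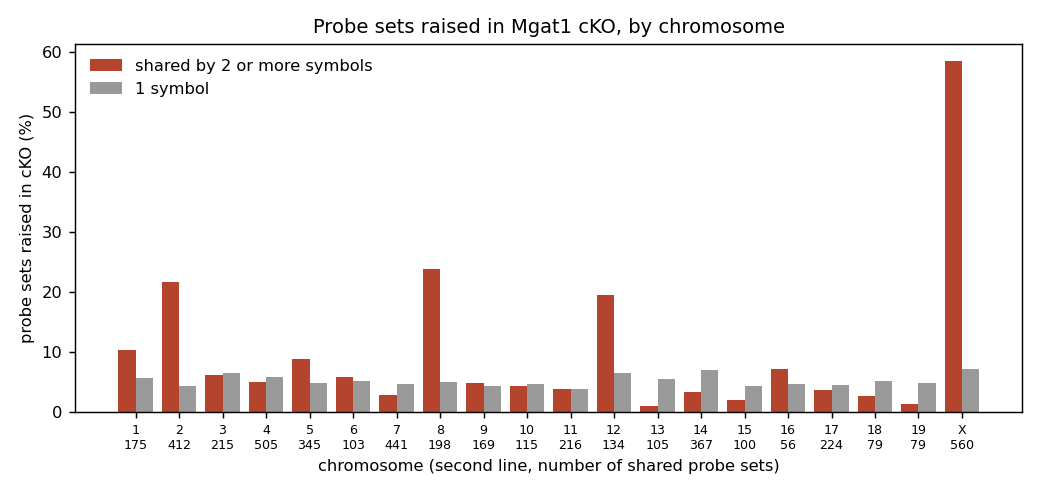
Percent of probe sets raised in the cKO (limma, adjusted p under 0.05) on each autosome and the X chromosome, for shared probe sets (left bars, with their number under each chromosome) and probe sets with 1 symbol (right bars). On the X chromosome 58.4% of the shared probe sets and 7.13% of those with 1 symbol were raised, and among the shared probe sets chromosomes 8, 2 and 12 followed. Of the 327 raised shared probe sets on the X chromosome, 151 are of the Slx group and 77 of the Slxl1 group. The Y chromosome, with 3 shared probe sets, is not drawn.

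Entries that share symbols were joined into linked groups, named for a leading symbol, which gave 940 groups. This grouping, and the choice to describe the 22 groups of at least 5 probe sets with at least 50% of them called, were made after the values were seen, so their counts are a description. Of the 22 groups, 19 were raised and 3 lowered.

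Slx and Slxl1 are related X-linked genes that are translated in spermatids. The Slx group joined Slx with 22 predicted symbols, and 151 of its 154 probe sets were raised, or 58 of its 61 measurements, with a median log2 fold change of 1.42. The mean over its 61 measurements was 10.67, 10.48 and 10.49 in the cKO arrays and 9.07, 8.98 and 9.19 in the control arrays, so that every cKO array lay above every control array. The probe set nearest the median had values of 10.84, 10.80 and 10.65 in cKO and 9.27, 9.28 and 9.49 in control arrays, a log2 fold change of 1.42 ± 0.14 (SE, adjusted p = 0.0029, limma). Slx alone had 5 single-symbol probe sets, of which 4 were raised, with a median of 1.41. Its companions were less uniform. Gm5168 had 3 of 4 single-symbol probe sets raised, Gm5169 2 of 2, Gm2012 and Gm5935 1 of 2 each and Gm2030 1 of 3. Gm4297 had 0 of 3 raised (median -0.07) and Gm5934 0 of 2 (median 0.32).

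The Slxl1 group, 5 symbols, was raised at 77 of 77 probe sets, in 35 measurements whose lowest change was 1.06 (median 1.39). Its mean was 10.50, 10.36 and 10.18 in the cKO arrays and 9.03, 8.77 and 9.14 in the control arrays, again without overlap. The single-symbol probe set of Slxl1 changed by 1.44 and was not called, while that of Gm16404 was raised by 1.26. In the Slxl1 group, the shared and single-symbol readings thus gave changes of similar size.

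Higher medians, above 2 on the log2 scale, were found in other X-linked families. Samt1, a multicopy transmembrane protein of male germ cells, and its 4 predicted or clone companions were raised at 19 of 19 probe sets (6 measurements, median 2.30), with means of 9.21, 8.86 and 9.16 in the cKO arrays and 6.78, 6.79 and 7.20 in the control arrays. The Gm14475 group of 13 predicted or clone symbols was raised at 15 of 19 probe sets (median 2.38), and its highest entry, of 10 symbols, read 9.00, 8.55 and 8.75 in cKO arrays and 4.70, 5.09 and 5.72 in control arrays, a log2 fold change of 3.60 ± 0.28 (SE, adjusted p = 0.0015). The SD of the array means was 0.19 in cKO and 0.24 in control arrays for Samt1, and 0.12 and 0.18 for the Gm14475 group. At the Gm14475 probe set nearest the median, the order was the other way, with 0.24 in cKO and 0.14 in control arrays. In the Gm14475 group, 4 probe sets were not called, and those had changes of -0.56, -0.55 and 0.56, of which -0.55 stood at 2 loci.

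The Gmcl1l group, copies related to the nuclear envelope protein germ cell-less, was raised at 27 of 27 probe sets (14 measurements, median 1.36), with means of 9.58, 9.26 and 9.20 in cKO and 8.01, 7.85 and 8.13 in control arrays. Pramel3, of the PRAME family of leucine-rich repeat proteins, and its 4 companions were raised at 15 of 18 probe sets (median 0.88), with means of 10.31, 10.11 and 10.09 in cKO and 9.32, 9.30 and 9.33 in control arrays. The pair 1700003E24Rik/1700084M14Rik was raised at 5 of 5 probe sets (median 2.37), with means of 11.03, 10.72 and 10.88 in cKO and 8.40, 8.40 and 8.77 in control arrays. None of these families had a cKO array within the range of the controls. The homeobox retrogenes Tgif2lx1/Tgif2lx2 were raised at 2 of 2 probe sets, by 2.06 ± 0.23 and 1.89 ± 0.17 (SE), and 1700020N15Rik/Gm6812 at 4 of 4, by 0.81 to 2.76.

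**Figure D2:**
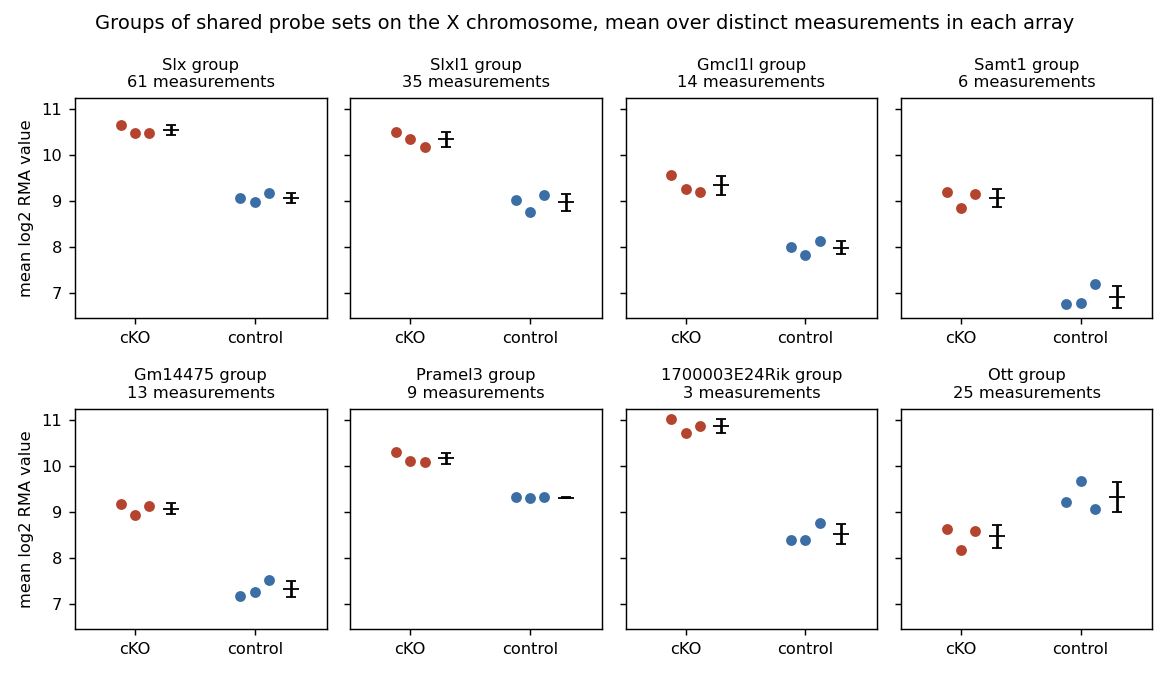
Mean log2 RMA value in each array over the distinct measurements of 8 X-linked groups, cKO arrays left and control arrays right (points, 1 array each; bars, mean and SD, n = 3). In 7 groups every cKO array lies above every control array, and in the Ott group every cKO array lies below, with means of 8.47 in cKO and 9.33 in control arrays.

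Other X-linked copies were lower or mixed. Ott, transcribed in testis and fetal ovary, Luzp4 and 10 predicted companions were lowered at 19 of 49 probe sets and raised at 0, with a median of -0.79. The 49 rows held 25 measurements, and the probe set nearest the median was not called (adjusted p = 0.14, limma). The mean over the 25 measurements was 8.63, 8.19 and 8.59 in the cKO arrays and 9.23, 9.69 and 9.06 in the control arrays. Of the 22 single-symbol probe sets of this group, 6 were lowered (median -0.67), and 0 of the 4 of Luzp4 were called (median -0.21). Of the X-linked lymphocyte-regulated genes, relatives of Slx expressed earlier in meiosis, the Xlr5 stem had 1 of 23 probe sets lowered (median -0.32) and the Xlr4 stem 1 of 11 (median -0.70), with 0 raised in either. Gm1140/Gm14692 had 0 of 18 called, with a median of -0.69, and Dmrtc1c1/Dmrtc1c2 0 of 18, with a median of -0.30. The DXBay18 group was split, with 8 of 19 raised, 1 lowered by 1.03 and a median of 0.75. Of 18 X-linked groups with at least 5 probe sets, 8 had a raised member and 6 a lowered one.

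Only 3 shared probe sets lay on the Y chromosome alone. Gm6026/H2afb1/Gm16501, which the gene table places on the Y chromosome and which include a histone variant symbol of the H2A.B type, read 7.93, 7.60 and 7.86 in cKO and 5.50, 5.55 and 5.55 in control arrays at both of its rows, which hold 1 measurement (log2 fold change 2.26 ± 0.15, SE, adjusted p = 0.0011). The zinc finger pair Zfy1/Zfy2 changed by 0.28, adjusted p = 0.47, with overlapping arrays. Of the 286 Y-linked probe sets with 1 symbol, 159 were raised (55.6%), in 61 measurements.

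Several autosomal copy clusters were raised as well. On chromosome 2, Gm14147, Gm14151 and 4921509C19Rik were raised at 10 of 10 shared probe sets (8 measurements, median 2.73), with means of 11.05, 10.52 and 10.02 in the cKO arrays and 7.83, 7.70 and 7.90 in the control arrays. The cKO arrays were more spread (SD 0.52) than the control arrays (SD 0.10) but did not reach them. Probe sets of 4921509C19Rik alone were raised at 3 of 4, with a median of 2.91. On chromosome 8, 4930467E23Rik/Gm15319, whose promoter windows are identical, were raised at 42 of 45 probe sets (17 measurements, median 1.26), with means of 11.25, 11.04 and 10.59 in cKO and 9.92, 9.65 and 9.67 in control arrays.

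A second chromosome 2 cluster of 24 symbols, led by Etohi1 and Gm14431, was raised at 71 of 130 probe sets (median 1.05), while its members ran between -0.82 and 2.50. Its mean was 7.88, 7.93 and 7.85 in cKO and 6.73, 6.99 and 6.92 in control arrays. Of the 23 single-symbol probe sets of this cluster, 2 were raised and 0 lowered, with a median of 0.24. The 2 of Etohi1 were not called (median -0.24), whereas the 1 of Gm4724 was raised by 3.00. On chromosome 5, the group of 1700001J03Rik and Gm6309 was raised at 17 of 20 (median 1.23), and on chromosome 3, 4930503B20Rik/Gm16325 at 3 of 3 (median 3.10). The highest of these, with values of 8.82, 8.20 and 8.41 in cKO and 4.48, 4.89 and 5.996 in control arrays, rose by 3.35 ± 0.40 (SE, adjusted p = 0.0055), and the middle one, with 11.73, 11.34 and 11.46 in cKO and 8.27, 8.37 and 8.58 in control arrays, by 3.10 ± 0.17 (SE, adjusted p = 0.0010).

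Among the named autosomal families, Srp54a, Srp54b and Srp54c, which encode the signal sequence binding subunit of the signal recognition particle, had the most calls. Of 33 probe sets with this stem, 24 were raised (12 of 18 measurements) and 0 lowered, with a median of 0.73 and a highest change of 1.17 ± 0.17 (SE, adjusted p = 0.011). That last call did not hold without cKO replicate 1, where the change was 1.11. Smok3a/Smok3b, sperm motility kinases, were raised at 3 of 8 with a median of 0.82, and their highest change, 1.67 ± 0.33 (SE, adjusted p = 0.029), lost its call in 7 of 13 alternatives. The t-complex dynein light chains Dynlt1a, Dynlt1b, Dynlt1c and Dynlt1f had 22 probe sets, of which 1 was raised. It read 10.96, 11.04 and 11.14 in cKO and 8.60, 8.36 and 8.42 in control arrays, a log2 fold change of 2.59 ± 0.14 (SE, adjusted p = 0.0010), while the other 21 changed by -0.87 to 0.46. Tmem181b-ps/Tmem181a, on the same chromosome, rose by 2.70 ± 0.14 (SE, adjusted p = 0.0010). Of the testis proteases Adam34/Gm5347, 2 of 4 probe sets were raised, by 2.36 and 2.62.

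**Figure D3:**
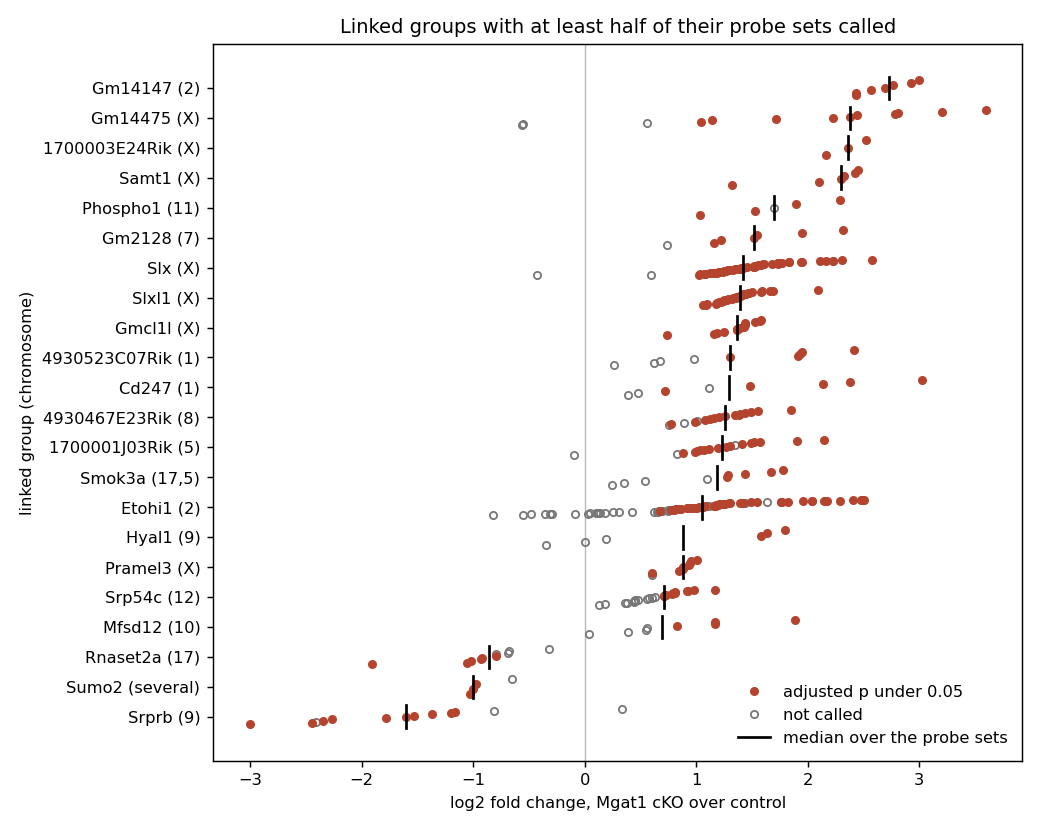
Log2 fold change (cKO over control) of each distinct measurement in the 22 linked groups with at least 5 probe sets and at least 50% called, ordered by median (vertical lines), with called measurements filled. In the Slxl1, Gmcl1l, Samt1, Gm14147 and 1700003E24Rik groups every measurement was called, while the Etohi1 group ran between -0.82 and 2.50.

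The largest single rise was at a probe set shared by 2 unrelated genes on different chromosomes. Prm2/Wdr19, a protamine that packs sperm DNA and a protein of intraflagellar transport, read 13.09, 12.67 and 12.83 in the cKO arrays and 8.32, 8.57 and 8.74 in the control arrays, a log2 fold change of 4.32 ± 0.18 (SE, adjusted p = 0.00091). The 3 probe sets of Prm2 alone averaged 11.48 ± 0.17 in cKO and 8.72 ± 0.14 in control arrays, and the 32 of Wdr19 alone 10.31 ± 0.09 in cKO and 10.52 ± 0.06 in control arrays (SD, n = 3 each). The shared value therefore moved in the direction of Prm2, with 2 of its 3 single-symbol probe sets raised, and not in that of Wdr19, with 0 of 32 raised.

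The pair of Gm6293 and Uqcr10, a subunit of respiratory complex III, stood in the entries of 5 probe sets. The raised one read 8.34, 8.43 and 8.48 in cKO and 4.82, 4.13 and 4.85 in control arrays, a change of 3.82 ± 0.22 (SE, adjusted p = 0.0010). The other 4 changed by -0.20 to 0.32. Vmn2r-ps11/Vmn2r7, vomeronasal receptors, rose by 3.41 ± 0.29 (SE, adjusted p = 0.0019), with 8.02, 7.28 and 6.92 in cKO and 3.90, 4.20 and 3.87 in control arrays, where the other 93 probe sets of the Vmn2r stem changed by -1.07 to 1.48.

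Entries of histone H4 moved in opposite directions. Of 7 probe sets listed under Hist1h4, Hist2h4 and Hist4h4 copies, 1, an entry of 13 symbols, was raised, with 8.99, 8.64 and 8.34 in cKO and 4.83, 5.18 and 5.63 in control arrays, a change of 3.45 ± 0.26 (SE, adjusted p = 0.0014). Another with the same 13 symbols was lowered, with 4.28, 4.45 and 5.51 in cKO and 6.13, 7.99 and 7.20 in control arrays, a change of -2.36 ± 0.53 (SE, adjusted p = 0.045). Both were chosen among called probe sets without overlap, and the lowered call was lost in 7 of 13 alternatives. The other 5 probe sets were not called. Of the single-symbol probe sets, that of Hist1h4a was raised by 1.55 and 1 of 2 of Hist4h4 was lowered.

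**Figure D4:**
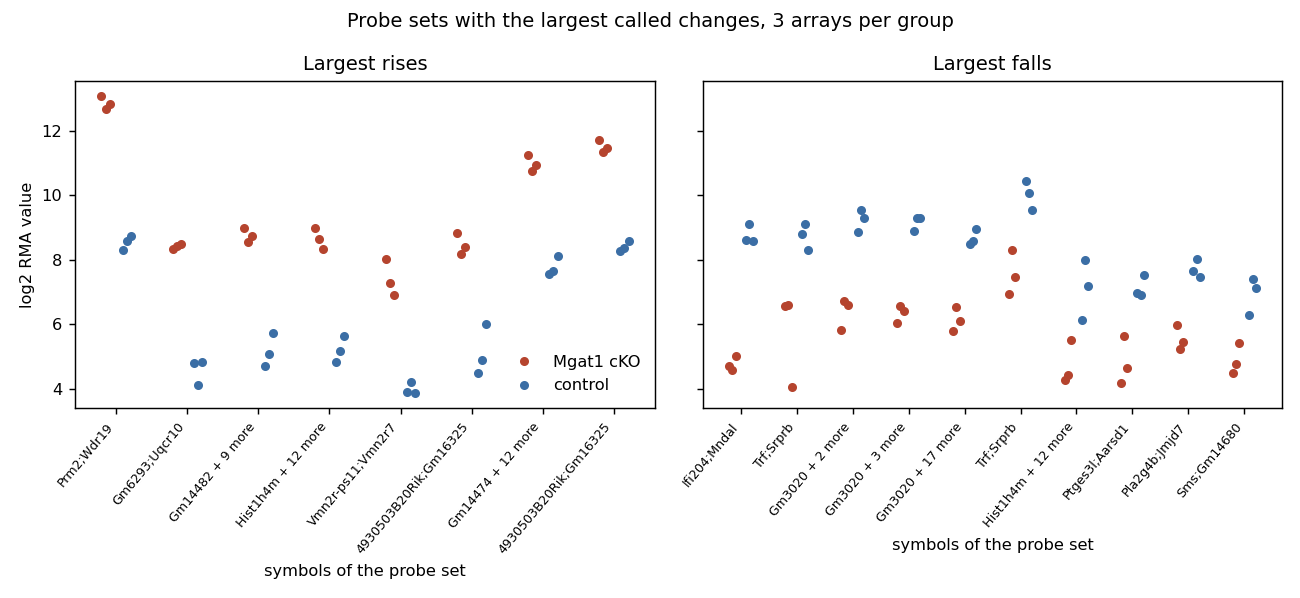
Log2 RMA values in each cKO array (left points) and control array (right points) for the distinct measurements among the 10 largest rises (left panel) and 10 largest falls (right panel) of called shared probe sets, with rows of the same values drawn once. Only probe sets in which no cKO array overlaps the control arrays were eligible. For Trf/Srprb 1 cKO array, at 4.05, lies apart from the others at 6.57 and 6.60.

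The largest fall was at Ifi204/Mndal, interferon-inducible nucleic acid sensors of the p200 family on chromosome 1. It read 4.70, 4.59 and 5.01 in the cKO arrays and 8.63, 9.11 and 8.59 in the control arrays, a log2 fold change of -4.00 ± 0.20 (SE, adjusted p = 0.0010). Of 3 probe sets of Mnda/Ifi204, 1 was lowered by 1.39, and the single-symbol probe set of Mnda was lowered by 3.25. Ifi204 alone had 2 probe sets, which changed by -1.46 and -1.03 and were not called, and Mndal alone had 5, of which 1 was raised and 0 lowered (median 0.65). The macrophage marker Cd74 was lowered at 12 of 12 probe sets in the same arrays, and Csf1r at 1 of 24. Its part in this fall was not tested.

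Trf/Srprb joins transferrin, an iron carrier that Sertoli cells secrete, with its neighbour, a subunit of the signal recognition particle receptor. Of 13 probe sets, 10 were lowered (median -1.60), and their mean was 7.25, 7.70 and 7.29 in cKO and 9.15, 9.28 and 8.79 in control arrays. Of the single-symbol probe sets, 2 of 6 of Trf were lowered and 0 of 9 of Srprb, with mean changes of -0.81 and -0.16. The Sertoli markers Rhox5 and Sox9 had 0 probe sets called, with changes of -0.23 and -0.34. The largest fall of the pair, -3.00 ± 0.70 (SE, adjusted p = 0.048), rested on cKO values of 6.57, 6.60 and 4.05 and control values of 8.80, 9.12 and 8.31, and lost its call in 9 of 13 alternatives.

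A group of 62 symbols on chromosome 14, led by Gm10340 and Gm3685 and with 2 entries that also hold a symbol on chromosome 17, had 174 probe sets, of which 15 were lowered and 7 raised, with a median of 0.05. Its lowest, Gm3020/Gm10409/Gm10406, read 5.83, 6.72 and 6.59 in cKO and 8.87, 9.55 and 9.29 in control arrays, a change of -2.86 ± 0.29 (SE, adjusted p = 0.0033). Entries of 4 and of 18 symbols fell by 2.82 and 2.53. These were exceptions within their group, most of which was not called.

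Rnaset2a/Rnaset2b, copies of a lysosomal ribonuclease, were lowered at 11 of 18 probe sets (6 of 10 measurements, median -0.86), with means of 8.59, 8.84 and 8.84 in cKO and 9.61, 9.87 and 9.51 in control arrays. The lowest, at 3.30, 4.10 and 3.96 in cKO and 5.12, 6.12 and 5.86 in control arrays, fell by 1.91 and lost its call in 5 of 12 alternatives. Neither copy had a single-symbol probe set. Jmjd7/Pla2g4b, a hydroxylase and a phospholipase transcribed from neighbouring genes, were lowered at 12 of 28 (median -0.91), the lowest by 2.17 with 5.97, 5.22 and 5.44 in cKO and 7.66, 8.01 and 7.48 in control arrays (adjusted p = 0.0045). Ptges3l/Aarsd1 had 1 of 28 lowered, by 2.31, and Sms/Gm14680, with the spermine synthase gene, 1 of 7, by 2.05. Those calls were lost in 6 and 5 of 13 alternatives.

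Many of the large families had no called probe set. Of 131 name stems, 42 held at least 8 probe sets, and 23 of these, with 383 probe sets in all, had 0 called, with stem medians between -0.48 and 0.33. The stems with calls included Srp54 and Rnaset2, and the Ugt1a stem of UDP glucuronosyltransferases had 1 of 8 lowered (median -0.77). Among those 23 were Vmn1r (54 probe sets), Il11ra (52), Olfr (27), Pcdhg (22), Cyp3a (20), Mup (15) and Klra (12), as well as Speer4 (10), a family of spermatogenesis. Some of these read low: the Klra1 and Mup16 groups averaged 3.46 and 3.73 in cKO and 3.47 and 3.82 in control arrays, where the medians of the arrays ran between 7.31 and 7.38, and the absence of calls there does not show that their transcripts were unchanged.

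For the classes of families, the shares over all probe sets are again 5.19% raised and 4.11% lowered. The chemosensory class as a whole, vomeronasal and olfactory receptors with pheromone carriers, had 1 raised and 2 lowered of 195 (0.513% and 1.03%), and entries of ribosomal proteins and translation factors 0 raised and 4 lowered of 136 (2.94%), near the share of all probe sets for the lowered. Immune families had 6 raised and 2 lowered of 298 (2.01% and 0.671%), with 4 of the raised in the chemokine stem Ccl21, whose rows hold 1 measurement with a change of 0.59 ± 0.14 (SE, adjusted p = 0.046), lost in 8 of 14 alternatives.

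Histones had 1 raised and 6 lowered of 92 (1.09% and 6.52%, median -0.19), and pancreatic amylases of the Amy2 stem 4 raised of 33, which hold 2 measurements. The highest, Amy2a5/Amy2b/Amy2a2, read 8.91, 8.59 and 8.42 in cKO and 5.36, 6.81 and 6.76 in control arrays, a change of 2.33 ± 0.41 (SE, adjusted p = 0.021) that was not called in 5 of 14 alternatives. Axonemal dynein heavy chains of the Dnahc7 stem had 1 raised and 2 lowered of 11 (median -0.43), the raised one by 1.33 ± 0.12 (SE, adjusted p = 0.0024), with 10.89, 10.92 and 10.83 in cKO and 9.58, 9.56 and 9.51 in control arrays. The class of multicopy sex chromosome genes of male germ cells stood at 183 raised of 279 (65.6%) and 22 lowered (median 1.28), and autosomal or mixed spermatogenesis families at 18 raised of 78 (23.1%) and 2 lowered (median 0.21). With equal values counted once, 81 of 153 measurements were raised in the former class and 11 of 62 in the latter.

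Whether a shared probe set changed by another amount than the single-symbol probe sets of its genes was tested as a difference within each array. The mean of the single-symbol probe sets of its symbols was subtracted from each probe set, and limma was fitted over all 235707 probe sets with such partners. Of the 4273 shared probe sets among them, 70 changed more upward and 38 more downward, or 1.64% and 0.889%, where 0.499% and 0.38% of all tested did. In distinct measurements these were 58 and 33. The counts depend on the full set of arrays: when any 1 array was left out, between 1 and 22 remained upward and between 0 and 5 downward.

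Prm2/Wdr19 exceeded the mean of its 35 partners by 4.28 ± 0.20 (SE, adjusted p = 0.0050), and Ifi204/Mndal fell short of its 7 partners by more than any other, -4.04 ± 0.22 (SE, adjusted p = 0.0067). The partner mean pools genes that can differ. Of the 35 partners of Prm2/Wdr19, 32 were of Wdr19, with a mean change of -0.22, and 3 of Prm2, with a mean change of 2.76. The single-symbol medians of Ifi204 and Mndal were -1.24 and 0.65. Neighbouring genes gave several upward differences. Pou2f1/Cd247, a transcription factor and a T cell receptor chain, had 5 of 8 probe sets raised, the highest by 3.03 where the 33 partners changed by -0.10. Of these partners, 22 of Pou2f1 had a median of -0.41 and 11 of Cd247 one of 0.33, and 1 of Cd247 alone was raised by 2.91, close to the highest shared value. Phospho1/Zfp652, a phosphatase and a zinc finger protein, had 4 of 5 raised, up to 2.29, where the 11 partners changed by -0.46. Of these partners, 10 were of Zfp652 (median -0.56) and 1 of Phospho1, which changed by 0.07. Fam160a2/Gm5901 had 2 of 3 raised, up to 3.01, where the partners changed by 0.00. All 14 of them were of Fam160a2, so that Gm5901 was not compared.

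Downward differences included a parent gene with its testis copy. Aldoa/Aldoart1, the muscle aldolase and its testis retrocopy, differed from 3 partners that changed by 1.63 at 4 probe sets, whose own changes were -1.51, -0.10, -0.04 and 0.37. Outside such pairs, Tmem181b-ps/Dynlt1f changed by 0.70, adjusted p = 0.11, where its 2 partners, both of Tmem181b-ps, changed by 3.20. Dynlt1f had no single-symbol probe set and was not compared. The Aldoa/Aldoart1 probe set at -1.51 thus moved opposite to its partners, and those at -0.10 and -0.04 did not rise. The one at 0.37 and that of Tmem181b-ps/Dynlt1f rose less than their partners. By linked group, the Etohi1 group held 22 of the 108 calls in either direction, and the Slx and 1700003E24Rik groups 3 each.

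**Figure D5:**
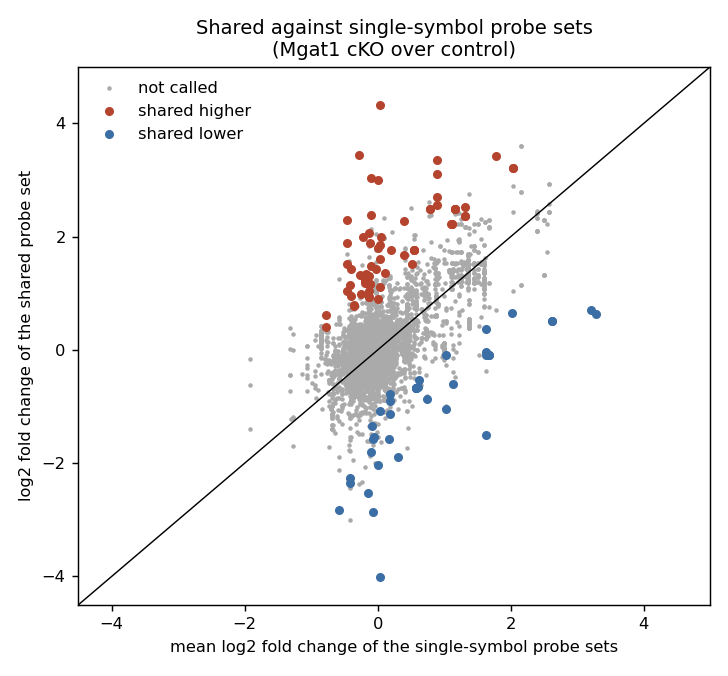
Log2 fold change (cKO over control) of each shared probe set against the mean of the single-symbol probe sets of its genes, for 4273 shared probe sets, with the line of equality. Coloured points are the 70 that changed more upward and the 38 that changed more downward in limma (adjusted p under 0.05). Prm2/Wdr19 lies at 4.32 against 0.04, the mean of 3 Prm2 and 32 Wdr19 probe sets, and Ifi204/Mndal at -4.00 against 0.03.

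MicroRNA genes were listed in 132 shared probe sets, of which 0 were raised and 11 lowered (8.33%, 10 measurements), where 5.19% of all probe sets were raised and 4.11% lowered. Such probe sets can read host transcripts as well as precursors, and their entries do not say which. The mature sequences of 5 of the microRNAs in lowered entries, from RefSeq with the seed (bases 2 to 8) in capitals, share no seed.
mmu-miR-21a-5p: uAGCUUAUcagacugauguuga
mmu-miR-3064-5p: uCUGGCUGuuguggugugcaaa
mmu-miR-3069-5p: uUGGCAGUcaagauauuguuuagc
mmu-miR-3101-5p: gGUACCAUugacuaaagcuag
mmu-miR-1892: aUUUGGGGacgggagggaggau

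Mir21/Vmp1 read 4.62, 4.57 and 4.48 in cKO and 5.22, 5.63 and 5.13 in control arrays, a change of -0.77 ± 0.17 (SE, adjusted p = 0.044). Ddx5/Mir3064, with an RNA helicase, read 10.48, 10.61 and 10.23 in cKO and 11.35, 11.28 and 11.17 in control arrays, a change of -0.83 ± 0.16 (SE, adjusted p = 0.026). Scarna13/Mir3069 fell by 1.25, Mir3101/Rab4b/Mia1 by 1.07 and 1110002B05Rik/Mir1892 by 1.31. The arrays of the 2 genotypes did not overlap at any of these 5 entries, which were chosen among the called ones. Whatever their calls, 64 of the 132 entries with a microRNA and 94003 of all 269751 probe sets had no overlap. A further 4 lowered rows held Sumo2 with Mir684 copies on different chromosomes, which fell by 0.97 to 1.02.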

How the data were processed

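Germ cells of 3 cKO and 3 control mice were measured. Signals were summarized by the authors in Affymetrix Expression Console (RMA), and the deposited values are log2 signals, 1 per probe set and array. Tool versions and the array's build were not given in the sources used here. The summary compresses differences at low signal and equalizes the arrays, whose medians ran between 7.31 and 7.38. Groups came from the sample labels. The members, stems, classes and lists were chosen with earlier results of these data known, and linked groups after the values were seen.

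Symbols came from the platform's probe table, and chromosomes from RefSeq genes (GRCm38.p6), which held 2595 of the 2606 symbols. Each probe set was fitted with limma 3.58.1 in R 4.3.3 without covariates or filter, adjusted by Benjamini-Hochberg over 269751. Differences from single-symbol probe sets were fitted over 235707. Named probe sets were the 10 largest rises and falls among called members without overlap, at most 2 per set of symbols, and the largest change in each stem with at least 3 probe sets and 2 calls. Of these stems, Ccl27 was led by an entry with a change of -0.88, adjusted p = 0.21. Entries shown beyond these were chosen after their values were seen.

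In simulated arrays with 200 of 269751 probe sets changed, the fit recovered 42% of 4-fold and 68% of 8-fold changes and 0 of 50 at 2-fold, with 0 false calls. The difference fit over 235707 recovered 14% at 4-fold and 56% at 8-fold. In the measured arrays, 13999 probe sets were called raised and 11086 lowered, many more than the 200 changed in the simulation. The adjusted p depends on that number, so these shares do not give the recovery in the measured arrays. There, a change of 0.59 was called at the Ccl21 entry. The number of arrays limits the precision, with a median standard error of 0.21. Alternatives tried were leaving out each array, a replicate block, median centring, quantile normalization, dim filters, limma-trend, array weights, a one-way test and fold limits.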

Additional observations from a re-analysis of the deposited data

How the results depend on the processing

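The count of shared probe sets raised in the cKO moved by less than 1.5 times under centring, quantile normalization and array weights, and that of lowered ones likewise. The number raised, 660, was 98 of 2326 entries with at least 2 named symbols, 402 when equal values were counted once and 333 without the X chromosome, an alternative chosen after seeing the data. It ran between 409 and 558 with 1 array left out. The number lowered, 195, was 325 without the dimmest 50% of probe sets, 365 with limma-trend, 96 with a one-way test per probe set, 106 at 2-fold or more, 90 with 2-fold differences of group medians, 124 for entries with at least 2 named symbols, and 47 to 113 with 1 array left out. On the X chromosome, the 327 raised became 149 and the 24 lowered 15 when equal values were counted once, also added later. The 24 lowered became 5 with the one-way test, 10 with group medians, and 3 to 13 with 1 array left out. Of the differences from single-symbol probe sets, the 70 upward became 113 with limma-trend, and the 38 downward became 62 and 85 without the dimmest 25% and 50%. With 1 array left out, 1 to 22 were upward and 0 to 5 downward.

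Same-numbered arrays of the 2 genotypes did not deviate together (correlations of 0.04, 0.03 and -0.01), so the numbers do not pair the mice. With the replicate number as a block, 428 shared probe sets were raised and 48 lowered, 5 X-linked ones were lowered, and differences from single-symbol probe sets were called 0 times upward and 0 times downward.

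The 27 named probe sets kept their direction in all 360 refits and lost their call in 56, in 10 of the 27. Medians of the 22 groups kept their sign in all 308 refits. In 13 of these the median moved by more than 1 SD between replicates, in 6 of them with 1 array left out. The moves of over 1.5 times came without the dimmest probe sets: the median of Pou2f1/Cd247, 1.29, became 0.44 and that of the Sumo2 group, -0.9997, became -0.66 without the dimmest 50%, and that of Hyal1/Nat6, 0.88, became 1.58 without the dimmest 25% or 50%.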
